A study of Mus musculus with 62 samples.

Results

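Mitochondrial ribosomal protein genes are nuclear genes whose products build the ribosome inside mitochondria. They were taken here as every row of the deposited expression table whose symbol is Mrpl or Mrps followed by a number and at most 1 letter, which gave 77 genes of 47643 symbols. By the names 48 are Mrpl and 29 are Mrps genes. By the assignment of their proteins 50 belong to the large subunit, 26 to the small subunit and 1, Mrps36, to neither. Mrps30 and Mrps18a carry small-subunit names but sit in the large subunit, and the Mrps36 protein is now known as a component of the oxoglutarate dehydrogenase complex of the citric acid cycle. All 77 genes passed the filter on low values (at least 1 TPM in at least 5 libraries), which 12581 genes passed in all.

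The mitochondrial ribosome translates the few proteins that mitochondrial DNA encodes, all of them core subunits of the respiratory chain or ATP synthase. It needs ribosomal RNAs made inside the organelle together with proteins that are made in the cytosol and imported. Some of its proteins descend from the bacterial ribosome, and others were added later in the history of mitochondria. Brown adipose tissue burns fuel to make heat through the uncoupling protein Ucp1, and it is among the tissues richest in mitochondria.

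The tissue came from female mice, 2 months old per the labels, in 12 groups. Mice of the CAC groups had been injected with melanoma cells called cachectic, those of the NCAC groups with melanoma cells called non-cachectic, and those of the Con groups were mock injected. Tissue was taken 2, 4, 6 and 8 weeks after injection, with 5 libraries in each group except CAC at 8 weeks, which has 7, and 62 in all. The sample labels give the strain as C57BL/6J, whereas the series text names NCI Ath/nude mice, a strain whose lack of a thymus leaves few mature T cells. The strain was not settled from these data. At 8 weeks the summed level of 4 T cell markers was 0.332 to 1.24 in CAC, 0.167 to 0.458 in NCAC and 0.282 to 2.61 in Con, in TPM rescaled as described next. Of the libraries of 4 weeks, 1 from CAC and 1 from Con have the same number in their names, and what it stands for is not given. Where the replicates are not separate animals, p-values measure only the spread between these libraries.

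Expression was deposited as TPM, a transcript abundance that is scaled for transcript length and to a fixed total in every library. The depth of each library is therefore unknown. Rows for genes of the mitochondrial genome (symbols beginning with mt-) took a large and uneven share of that total. At 8 weeks they held 50.8% ± 3.67 of the TPM in CAC (SD, n = 7), 59.8% ± 2.33 in NCAC (n = 5) and 62.8% ± 2.33 in Con (n = 5). Levels and differences were therefore also computed on a second scale, called nuclear-scaled TPM here, for which the mt- rows were removed and the rest rescaled to a total of 1000000. The 2 ribosomal RNAs of mitochondria, mt-Rnr1 and mt-Rnr2, are listed at 0 in every library, so the RNA partners of these proteins cannot be followed. In Con at 4 weeks libraries 3 and 4 stood apart, with mt- shares of 39.6% and 39.7% against 57.1% to 58.7% in the other 3. Skeletal muscle markers, summed over 11 genes, also varied among the Con libraries of 4 weeks. Library 3 had the lowest sum, at 806 nuclear-scaled TPM, and library 4 the highest, at 35266. Ucp1, Cidea and the other brown adipocyte markers were present in all groups.

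The members spanned a wide range of levels. Their mean TPM over all 62 libraries had a median of 40.9, against 7.28 over all genes tested. Mrpl42, a large-subunit protein with no bacterial counterpart, was highest at 287 TPM, followed by Mrpl12 at 155 TPM and Mrps16, a small-subunit protein of bacterial descent, at 144 TPM. The lowest were Mrpl33 at 8.67 TPM, Mrpl19 at 7.93 TPM and Mrps10 at 4.45 TPM, all 3 of bacterial descent. Mrpl42 thus exceeded Mrps10 by 64.5-fold in mean TPM. The top 10 members made up 35.7% of the summed level, 7 members were over 100 TPM and 9 were under 10 TPM. The 5 pseudogene rows of the family were listed at 0 in every library.

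The summed level of the 77 members was below that of both other arms in CAC at 8 weeks on the nuclear scale. It averaged 7149 ± 566 nuclear-scaled TPM in CAC (SD, n = 7), 8807 ± 239 in NCAC (n = 5) and 8659 ± 246 in Con (n = 5). The CAC mean was 17.4% below Con and 18.8% below NCAC. The CAC libraries held between 6644 and 8349, the NCAC libraries between 8544 and 9134 and the Con libraries between 8253 and 8874. Library 3 of CAC, at 8349, was the only CAC library above the lowest Con library, and the CAC range did not meet the NCAC range. In a bulk sample, fewer cells of a type and less RNA per cell cannot be told apart.

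At the earlier weeks the arms lay closer together. At 2 weeks it averaged 8457 ± 421 in CAC, 8873 ± 332 in NCAC and 9041 ± 73.3 in Con, at 4 weeks 8115 ± 979 in CAC, 9009 ± 360 in NCAC and 9255 ± 327 in Con, and at 6 weeks 8069 ± 342 in CAC, 8925 ± 654 in NCAC and 8979 ± 244 in Con (SD, n = 5 each). The CAC mean was thus the lowest of the 3 arms at every week, and the wide spread at 4 weeks came with 1 CAC library at 6578. In TPM the order changed. At 8 weeks the sum averaged 3506 ± 260 TPM in CAC, 3539 ± 126 TPM in NCAC and 3218 ± 180 TPM in Con, so that CAC stood 8.94% above Con and 0.936% below NCAC.

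**Figure D1:**
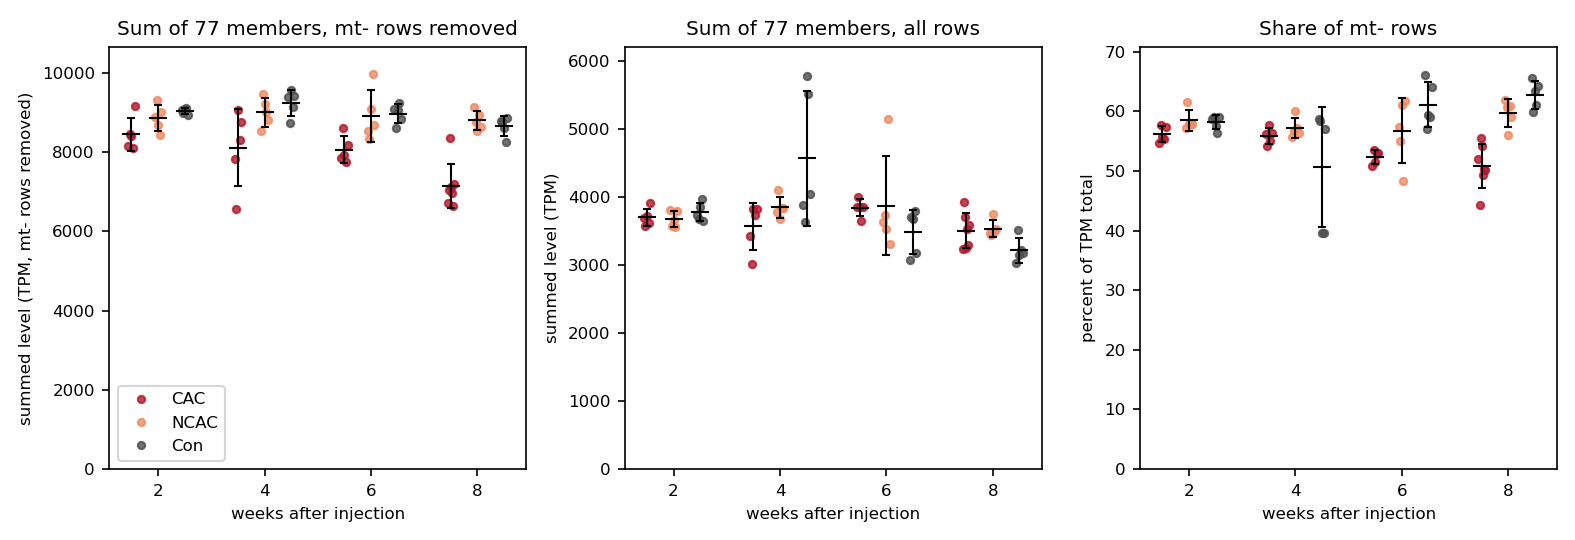
Summed level of the 77 genes in each library on the nuclear scale (left) and in TPM (middle), and the percent of TPM held by mt- rows (right), by weeks after injection. Points are libraries (CAC, NCAC and Con from left to right), and bars give the mean and SD. At 8 weeks the CAC libraries lie between 6644 and 8349 on the nuclear scale and the Con libraries between 8253 and 8874.

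The 2 subunits kept nearly the same balance throughout. The summed level of the large-subunit genes was 2.51 ± 0.04 times that of the small-subunit genes in CAC at 8 weeks, 2.51 ± 0.05 times in NCAC and 2.51 ± 0.03 times in Con. Over the 12 groups the mean of this ratio ran between 2.48 and 2.56.

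At 8 weeks CAC against Con gave opposite counts on the 2 scales, but the members lay below the median gene on both. After rescaling to nuclear genes 52 of 77 members were lower in CAC and 0 higher (limma, adjusted p under 0.05), where 16.9% of all genes tested were lower and 10.4% higher. In TPM 23 members were higher and 0 lower, where 52.1% of all genes were higher and 1.97% lower, and this count was 15 without CAC library 2 and 14 without Con library 1. After median-of-ratios rescaling, which sets the median gene near 0, 37 members were lower and 0 higher. The share of all genes called after that rescaling is not given here. Removing the mt- rows moved the median log2 difference of all genes to -0.05 from 0.28 on the TPM scale, and that of the members to -0.27 from 0.12. Relative to the median gene the members were lower by 0.16 on the TPM scale, by 0.22 on the nuclear scale and by 0.22 after median-of-ratios rescaling. Below the median gene lay 66, 74 and 74 of the 77 members on these scales, in the same order.

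CAC against NCAC at 8 weeks had the same direction on the nuclear scale. There 56 members were lower in CAC and 0 higher, against 14.0% of all genes lower and 10.6% higher, and the median member differed by -0.28 and the median gene by -0.03. In TPM 1 member, Mrpl27, was higher and 2, Mrpl44 and Mrps36, were lower, where 37.3% of all genes were higher and 1.98% lower. These 3 calls became 0 without CAC library 6, 5 without CAC library 5, and 1 when CAC library 1 or 2 was dropped, as with NCAC library 1, 2 or 4. The median member differed by 0.00 there and the median gene by 0.21. With only the 2 groups compared in the fit, the nuclear-scale calls numbered 29 against NCAC and 32 against Con. Median-of-ratios rescaling gave 48 lower and 0 higher. Shares of all genes called are not given for that rescaling or for the fits of 2 groups. Both comparisons use the same 7 CAC libraries. Of the members, 15 had CAC and Con libraries that did not overlap, CAC being lower, where 5.65% of all genes did, and 19 had CAC and NCAC libraries that did not overlap, where 2.98% of all genes did (nuclear scale).

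Both subunits and both evolutionary classes took part. Of all genes tested 16.9% were lower against Con and 14.0% against NCAC at 8 weeks on the nuclear scale. Against Con on the nuclear scale 32 of 50 large-subunit genes, 19 of 26 small-subunit genes and Mrps36 were lower, with median log2 differences of -0.27 for either subunit. Of the members with a bacterial counterpart 32 of 46 were lower, and of those particular to mitochondria 19 of 30. Against NCAC the counts were 39 of 50 large-subunit genes and 16 of 26 small-subunit genes. The differences between subunits and between classes were not tested.

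Mrps36 had the lowest log2 difference of all members against Con at 8 weeks. Its gene lies at chr13:100735955-100744659 (minus strand) in the GENCODE M21 annotation of mm10, the source of the other gene positions too. Its levels on the nuclear scale were 187 at the lowest, 204 at the median and 307 at the highest in CAC, against 348, 323, 260, 334 and 327 in NCAC and 352, 344, 324, 311 and 359 in Con. The CAC and Con libraries did not overlap, although CAC library 3, at 307, came close to the Con library at 311. The fitted log2 difference was -0.61 (SE 0.10, adjusted p = 2.56e-06) against Con and -0.52 (SE 0.10, adjusted p = 4.58e-05) against NCAC. In TPM it was -0.21 (adjusted p = 0.0501) against Con, so Mrps36 was lower there too but not called.

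Mrpl44, encoded at chr1:79776018-79781445 (plus strand), is a large-subunit protein particular to mitochondria, with a fold related to double-stranded RNA nucleases. Its nuclear-scaled levels were 45.4 at the lowest, 55.6 at the median and 66.4 at the highest in CAC, against 84.3, 77.4, 78.7, 80.9 and 71.6 in NCAC and 77.0, 83.7, 78.0, 74.4 and 71.3 in Con. Every CAC library was below every library of both other arms. The log2 difference was -0.49 (SE 0.08, adjusted p = 2.69e-06) against Con and -0.53 (SE 0.08, adjusted p = 8.7e-07) against NCAC.

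Mrpl42, the member with the highest level, at chr10:95480805-95501940 (minus strand), also separated the groups. Its nuclear-scaled levels were 462 at the lowest, 531 at the median and 652 at the highest in CAC, against 733, 670, 663, 706 and 731 in NCAC and 700, 730, 710, 667 and 692 in Con. No CAC library reached the level of any NCAC or Con library. The difference on the log2 scale was -0.40 (SE 0.06) against either arm, with adjusted p = 3.41e-06 against Con and adjusted p = 3.67e-06 against NCAC. In TPM the same gene was not called (log2 difference 0.00, SE 0.08, adjusted p = 0.983 against Con).

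Mrpl34, at chr8:71464959-71465747 (plus strand), belongs to the large subunit and has a bacterial counterpart. Its nuclear-scaled levels were 166 at the lowest, 194 at the median and 277 at the highest in CAC, against 274, 277, 233, 297 and 263 in NCAC and 296, 291, 291, 231 and 291 in Con. CAC library 3 lay inside the range of both other arms and the other 6 CAC libraries lay below it. The log2 difference was -0.51 (SE 0.11, adjusted p = 0.000526) against Con and -0.45 (SE 0.11, adjusted p = 0.0022) against NCAC.

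Mrpl12, at chr11:120484613-120489065 (plus strand), forms the flexible stalk that recruits translation factors to the ribosome and is also reported to bind the mitochondrial RNA polymerase. Its nuclear-scaled levels were 243 at the lowest, 271 at the median and 337 at the highest in CAC, against 356, 341, 380, 391 and 340 in NCAC and 348, 338, 340, 321 and 352 in Con. The CAC range lay below the NCAC range and met the Con range through CAC library 3 alone. CAC differed in log2 by -0.32 (SE 0.08, adjusted p = 0.00239) against Con and -0.40 (SE 0.08, adjusted p = 0.000155) against NCAC.

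Mrps2, a small-subunit protein of bacterial descent encoded at chr2:28468066-28471178 (plus strand), had the lowest difference of all members against NCAC. Its nuclear-scaled levels were 61.4 at the lowest, 83.4 at the median and 126 at the highest in CAC, against 136, 125, 125, 122 and 111 in NCAC and 113, 121, 119, 102 and 122 in Con. CAC library 5, at 126, was the exception, since the other 6 CAC libraries were below all libraries of both other arms. The log2 difference was -0.56 (SE 0.11, adjusted p = 0.000152) against NCAC and -0.46 (SE 0.11, adjusted p = 0.00142) against Con.

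**Figure D2:**
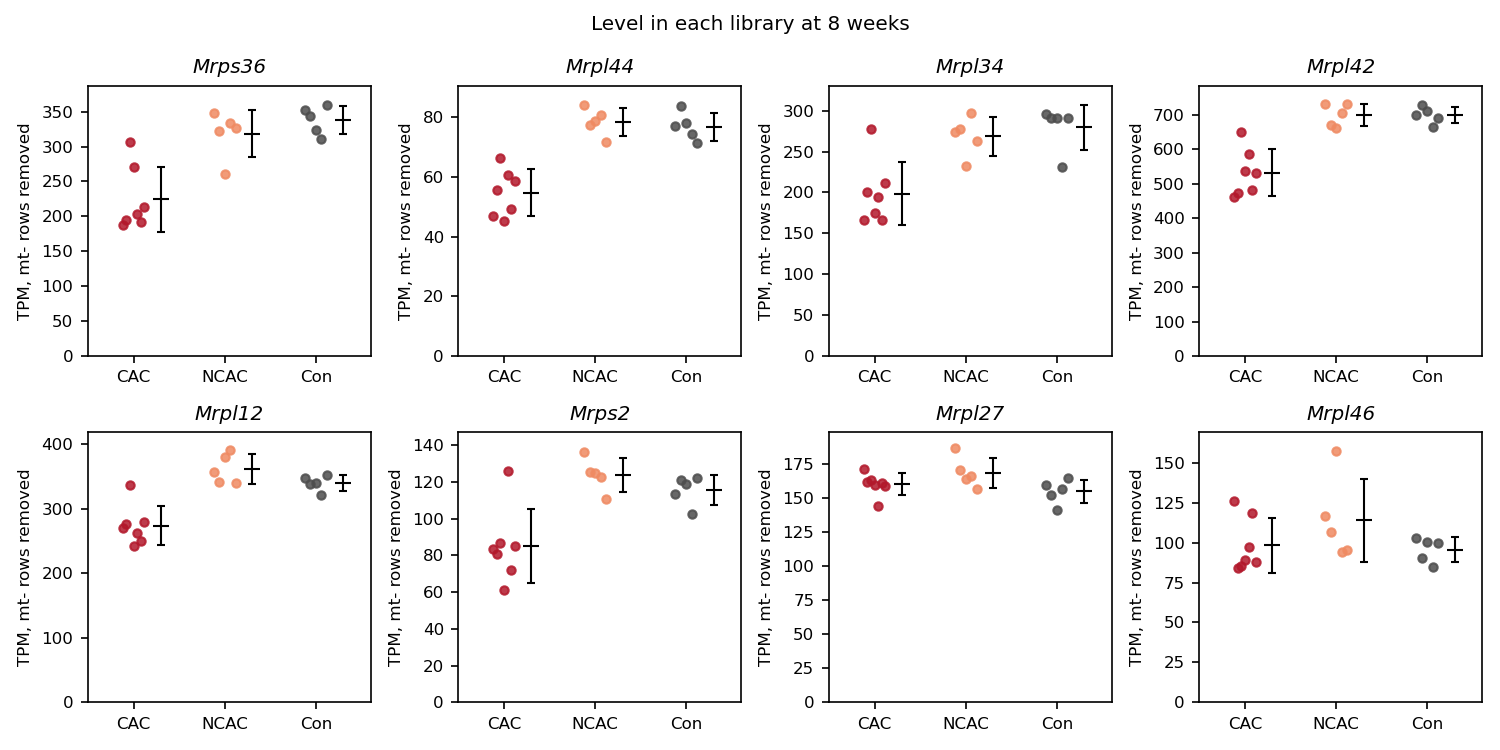
Nuclear-scaled TPM of 8 members in each library at 8 weeks, with CAC, NCAC and Con from left to right. Points are libraries and the bars beside them give the mean and SD. CAC lies below both other arms for Mrpl44 and Mrpl42, and the 3 arms overlap for Mrpl27 and Mrpl46.

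Mrps14 and Mrps6, both small-subunit proteins of bacterial descent, were lower in CAC than in Con with a wider spread. The log2 difference was -0.50 (SE 0.17, adjusted p = 0.0207) for Mrps14 and -0.48 (SE 0.18, adjusted p = 0.0326) for Mrps6 on the nuclear scale. Leaving out CAC library 5 or 6 or Con library 3 or 5 ended the call of Mrps14, with adjusted p up to 0.0544. Leaving out CAC library 1, 5 or 6 or Con library 1, 2 or 3 ended that of Mrps6, with adjusted p up to 0.114. Neither was called against NCAC. Mrps6 shares its strand with Slc5a3 at the same place, so its reads may not be separable from those of that gene.

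Other members with a known place in the ribosome were lower as well. Mrps12, the counterpart of the bacterial protein that guards decoding accuracy, differed by -0.35 (SE 0.10) against Con and by -0.38 against NCAC, with adjusted p = 0.00929 and 0.00541. Mrps30, which sits in the large subunit, differed by -0.30 (SE 0.07, adjusted p = 0.000928) against Con. Mrps16 differed by -0.28 (adjusted p = 0.00326) and Mrpl19 by -0.34 (adjusted p = 0.00198) against Con. Mrpl33 and Mrps10 were not called against Con on the nuclear scale, with log2 differences of -0.15 and -0.14. Mrps18a, the other member with a small-subunit name in the large subunit, was not called either (-0.09, SE 0.09).

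A few members had differences near 0 against Con on the nuclear scale at 8 weeks. Mrpl27 is encoded at chr11:94653767-94660089 (plus strand), and its bacterial counterpart lies close to the peptidyl transferase centre. It was at 144 at the lowest, 161 at the median and 171 at the highest in CAC, against 187, 171, 164, 166 and 157 in NCAC and 160, 153, 142, 157 and 165 in Con. The 3 arms overlapped, and the log2 difference against Con was 0.05 (SE 0.05, adjusted p = 0.526). In TPM Mrpl27 was the member with the highest difference against Con, at 0.44 (SE 0.09, adjusted p = 4.12e-05).

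Mrpl46, at chr7:78775236-78783531 (minus strand), and Mrps11, at chr7:78783119-78792989 (plus strand), lie on opposite strands and overlap at their starts. Mrpl46 was at 84.3 at the lowest, 88.8 at the median and 126 at the highest in CAC, against 117, 106, 157, 93.8 and 95.1 in NCAC and 103, 90.6, 100, 84.6 and 99.7 in Con, with no separation of the arms. The log2 difference against Con was 0.03 (SE 0.11) for Mrpl46 and 0.02 (SE 0.17) for Mrps11, and leaving out 1 library turned either sign. Mrps17, Mrps34 and Mrpl23 completed the 6 highest members, at -0.05, -0.05 and -0.06. After median-of-ratios rescaling they were at -0.01, -0.01 and -0.02.

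**Figure D3:**
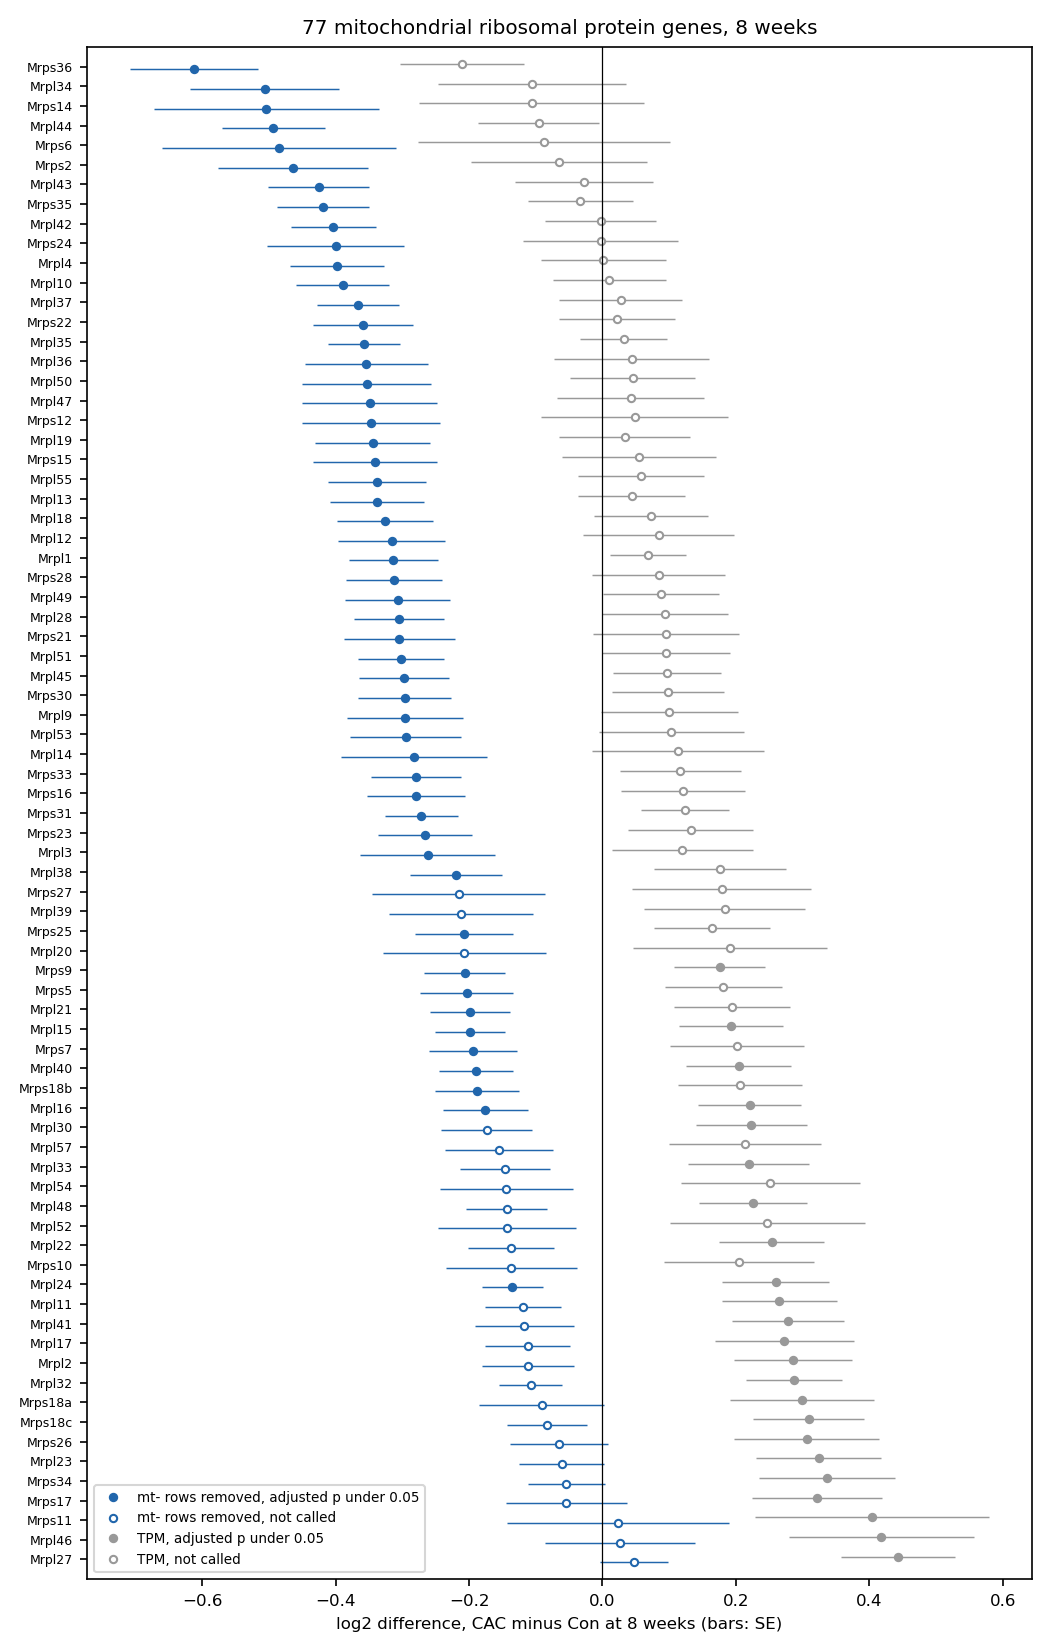
Log2 difference of CAC minus Con at 8 weeks for all 77 genes, ordered by the nuclear-scale value, with nuclear-scaled values in blue (mt- rows removed) and TPM values in grey. Filled points have an adjusted p under 0.05 and bars give the SE. The nuclear-scaled values run between -0.61 for Mrps36 and 0.05 for Mrpl27, and the TPM values are shifted to the right with much the same order.

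Promoters of the members were read from a RefSeq table of GRCm38.p6, which holds windows of 250 bases before to 50 after a start for 68 of the 77 genes. The letters CCGGAAG on either strand, a core bound by ETS factors such as the subunit Gabpa of nuclear respiratory factor 2, stood in promoters of 25 of 68 members (36.8%), against 19.9% of the tested genes in the table and 9.93% of all genes in it. Stretches of 4 such promoters are shown because they hold this motif in members that were lower in CAC at 8 weeks (Mrpl43, Mrpl53, Mrpl34) and in one that was not (Mrpl27). They run 5′ to 3′ on the strand of the gene, and capitals mark the motif, with CTTCCGG where it lies on the other strand. Mrpl43 is at chr19:45006443-45006522 (minus strand), Mrpl53 at chr6:83109028-83109107 (plus), Mrpl34 at chr8:71464846-71464925 (plus) and Mrpl27 at chr11:94653711-94653790 (plus). These stretches end at the RefSeq start. The GENCODE annotation starts Mrpl53 at chr6:83109040 and Mrpl27 at chr11:94653767, inside their stretches. Both marked motifs of Mrpl53 lie after that GENCODE start.
Mrpl43: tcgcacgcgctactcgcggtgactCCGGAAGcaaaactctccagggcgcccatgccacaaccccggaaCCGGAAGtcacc
Mrpl53: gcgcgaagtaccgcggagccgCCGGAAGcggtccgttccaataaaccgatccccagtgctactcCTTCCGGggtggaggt
Mrpl34: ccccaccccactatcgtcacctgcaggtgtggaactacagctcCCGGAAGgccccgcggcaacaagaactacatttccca
Mrpl27: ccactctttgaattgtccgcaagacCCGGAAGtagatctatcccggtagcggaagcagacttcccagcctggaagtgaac

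Members were lower in CAC both with and without these letters. Of all genes tested 16.9% were lower in CAC than in Con at 8 weeks on the nuclear scale. By nuclear-scaled TPM 14 of 25 members with the motif were lower in CAC than in Con at 8 weeks, with a median log2 difference of -0.22, and 31 of 43 without it, with a median of -0.30. Mrpl43 differed by -0.43 and Mrpl53 by -0.29. The other letters searched on both strands were rarer. The NRF1 palindrome was found in 4.41% of members and 2.35% of tested genes, the YY1 letters in 7.35% and 2.44%, the letters CACGTG of an E-box in 7.35% and 11.9%, the ERR letters in 2.94% and 1.35% and the CRE letters in 2.94% and 3.57%. A match of letters is a description and no evidence of binding.

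At 2 weeks few members were called between CAC and Con, but most lay below the median gene. Relative to that gene the members were lower by 0.11 on the TPM scale and by 0.13 on the nuclear scale, with 69 and 70 of 77 below it. No member was called in TPM by limma, where 4.58% of all genes were higher and 0.0477% lower, and 2 members reached an unadjusted p under 0.05. Rescaled to nuclear genes, 1 member, Mrpl38, was lower (-0.25, adjusted p = 0.0373), where 0.366% of all genes were lower and 5.04% higher. That count was 0 without any of 8 of the 10 libraries and 3 without CAC library 5. The extremes on the nuclear scale, none of them called, were Mrps27 at -0.32 and Mrpl50 at -0.25, both particular to mitochondria, and Mrpl33 at 0.19 and Mrpl3 at 0.24, both with bacterial counterparts. Against NCAC 0 members were called on either scale by limma, with 1 on the TPM scale and 0 on the nuclear scale at an unadjusted p under 0.05. The share of all genes called there was 0.0397% higher on the TPM scale and 0.0318% higher on the nuclear scale, with 0.0% lower on both. Most members lay below the median gene against NCAC too, 67 of 77 on the TPM scale and 69 on the nuclear scale. There the median member differed by 0.02 and -0.05 on these scales, and the median gene by 0.11 and 0.05. A fit of CAC and Con alone called 2 members higher on the TPM scale and 2 lower on the nuclear scale. Macrophage marker sums at 2 weeks ran from 205 to 325 nuclear-scaled TPM in CAC, 123 to 285 in NCAC and 107 to 175 in Con. Skeletal muscle marker sums ran from 3286 to 34599 in CAC, 3425 to 10694 in NCAC and 216 to 5935 in Con. The part of these markers in the 2-week differences was not tested.

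At 4 weeks the count of calls against Con depended on single libraries of both groups. In TPM 26 members were lower in CAC and 0 higher, where 3.03% of all genes were lower and 0.819% higher. After rescaling to nuclear genes 19 were lower and 0 higher, where 1.63% of all genes were lower and 4.51% higher. With all libraries the members were lower than the median gene by 0.20 on the TPM scale and by 0.19 on the nuclear scale. On either scale 74 of 77 lay below it. Without Con libraries 3 and 4, whose mt- share stood apart, 0 members were called on either scale, and on the TPM scale 0 were called without Con library 3 alone, 1 without Con library 4, 2 without CAC library 2 and 46 without Con library 2. The nuclear-scale count was 7 without CAC library 2. A fit of the CAC and Con libraries of 4 weeks by themselves also called 0 on both scales. Mrpl34 had the lowest nuclear-scale difference at -0.58 (SE 0.12), with levels of 212, 177, 291, 249 and 270 in CAC against 330, 318, 436, 344 and 353 in Con. These 2 groups did not overlap, with or without Con libraries 3 and 4. Mrpl52, particular to mitochondria, followed at -0.51 (SE 0.11), and the highest were Mrps18c at 0.08 and Mrps17 at 0.13, which were not called.

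Against NCAC at 4 weeks 0 members were called on the TPM scale, where 0.588% of all genes were higher and 0.0% lower, with 7 members at an unadjusted p under 0.05. After rescaling, 1 member, Mrps22, was lower, where 0.111% of all genes were lower and 0.939% higher, with 31 members at an unadjusted p under 0.05. Shares of all genes at that unadjusted threshold are not given here. The count of 1 moved between 0 and 5 when single libraries were left out, with 0 without CAC library 2 or any of NCAC libraries 2 to 5, and 5 without CAC library 5. The median member differed by -0.13 and the median gene by 0.02 on the nuclear scale. On the TPM scale they differed by -0.09 and 0.06.

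At 6 weeks the 2 scales again gave opposite counts against Con. By TPM 9 members were higher in CAC and 0 lower, where 20.7% of all genes were higher and 0.978% lower. The count of 9 was 3 without CAC library 1, Con library 1 or Con library 5, and 5 without CAC library 2 or 4. By nuclear-scaled TPM 12 were lower and 1 higher, where 6.81% of all genes were lower and 3.64% higher. Median-of-ratios rescaling left 2 lower and 1 higher. The members lay closer to the median gene than at the other weeks. On the TPM scale the median member differed by 0.16 and the median gene by 0.18, with 48 of 77 members below that gene. On the nuclear scale they differed by -0.14 and -0.07, with 58 of 77 below. The lowest nuclear-scale values were those of Mrps14 at -0.69 (SE 0.18, adjusted p = 0.00873) and Mrps6 at -0.50 (SE 0.19, adjusted p = 0.0822). Mrps36 differed by -0.44 (SE 0.10), Mrpl42 by -0.30 (SE 0.07) and Mrps30 by -0.22 (SE 0.07), and all 3 were called. Mrpl12 was not called at 6 weeks (-0.07, SE 0.09).

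Mrpl27 moved the other way at 6 weeks. Its nuclear-scaled levels were 200, 202, 185, 190 and 192 in CAC, against 162, 157, 168, 181 and 164 in NCAC and 167, 172, 166, 161 and 165 in Con. Every CAC library was above every library of both other arms. The log2 difference was 0.22 (SE 0.05) against either arm, with adjusted p = 0.00494 against Con and adjusted p = 0.00485 against NCAC. Mrpl2, a core protein of the large subunit of bacterial descent, had the next highest value against Con at 0.12 (SE 0.07) and was called on the TPM scale only, at 0.41. Against NCAC Mrpl27 was the only member higher on either scale. The other calls against NCAC at 6 weeks were 12 lower on the nuclear scale and 0 lower on the TPM scale. With Mrpl27 the nuclear-scale calls numbered 6 without CAC library 1 and 7 without NCAC library 3, and the TPM calls 3 without NCAC library 4. Fitting these 2 groups alone gave 6 calls on the nuclear scale and 0 on the TPM scale, and median-of-ratios rescaling gave 2. In the fit of all 12 groups 8.01% of all genes were lower and 4.42% higher on the nuclear scale. On the TPM scale 1.95% were lower and 5.82% higher.

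No member was called between NCAC and Con at any of the 4 weeks on either scale by limma. Of all genes 0.0% were called in either direction at 2, 6 and 8 weeks. At 4 weeks 0.00795% were lower and 0.0% higher on the TPM scale, and 0.00796% were lower and 0.00796% higher on the nuclear scale. By TPM 1, 36, 11 and 11 members reached an unadjusted p under 0.05 at 2, 4, 6 and 8 weeks, and on the nuclear scale 4, 7, 1 and 2 did. The share of all genes at that unadjusted threshold is not given here. In TPM the median member differed by -0.04, -0.19, 0.13 and 0.13 over the 4 weeks. The median gene differed there by -0.004, -0.14, 0.11 and 0.07. The median member differed by -0.03, -0.01, -0.01 and 0.03 on the nuclear scale over the 4 weeks, and the median gene by 0.005, 0.01, -0.01 and -0.02. At 8 weeks most members thus lay above the median gene, with 15 of 77 below it in TPM and 18 on the nuclear scale. At 4 weeks 13 members were lower in NCAC by TPM without Con library 2 and 6 without Con library 5.

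**Figure D4:**
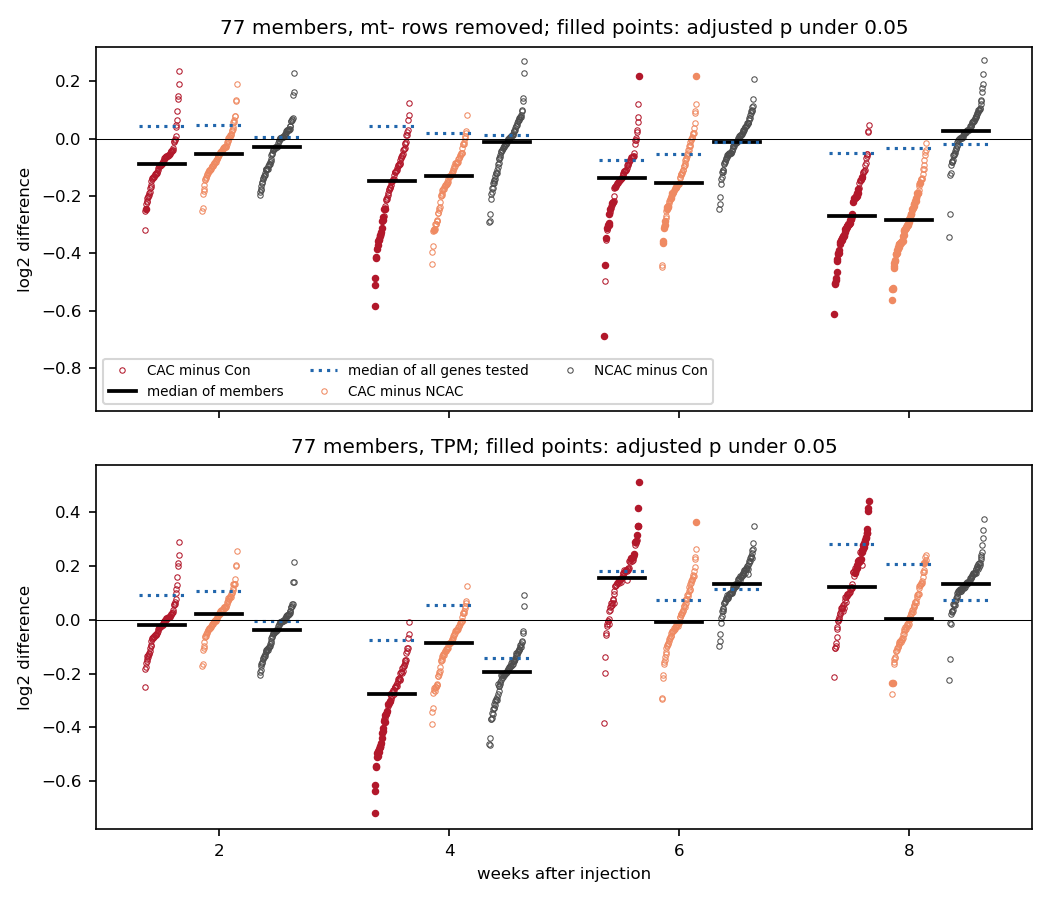
Log2 differences of the 77 genes at each week on the nuclear scale (top) and in TPM (bottom), for CAC minus Con, CAC minus NCAC and NCAC minus Con from left to right. Each point is a gene, filled where the adjusted p is under 0.05, solid bars mark the median of the members and dotted bars the median of all genes tested. On the nuclear scale the medians of the members at 8 weeks are -0.27, -0.28 and 0.03.

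Within the CAC arm many members were lower at 8 than at 2 weeks on the nuclear scale. By nuclear-scaled TPM 42 were lower and 0 higher at 8 weeks, where 17.8% of all genes were lower and 8.71% higher, and on the TPM scale 4 were lower and 0 higher, where 5.56% were lower and 15.0% higher. The nuclear-scale count of 42 was 20 with only the 2 CAC groups in the fit, and 25 members were lower after median-of-ratios rescaling. Shares of all genes are not given for that fit or that rescaling. The TPM count was 8 without CAC library 3 of 8 weeks, 1 without CAC library 5 of 2 weeks, and 2 without CAC library 4 of 2 weeks or CAC library 4 or 6 of 8 weeks. Mock-injected tissue was compared over the same interval, and 0 members were called on either scale. Of all genes 0.0318% were lower and 0.0% higher on the TPM scale, and 0.00796% were lower and 0.127% higher on the nuclear scale. In that comparison 39 members on the TPM scale and 8 on the nuclear scale reached an unadjusted p under 0.05. The share of all genes at that unadjusted threshold is not given here. Without Con library 2 of 8 weeks 4 members were lower at 8 weeks on the TPM scale. A fit of the 2 Con groups alone called 28 members lower at 8 weeks on the TPM scale. The share of all genes called in that fit is not given here. In the fit of all 12 groups the median gene differed by -0.11 and the median member by -0.22 in Con on the TPM scale. Relative to the median gene the members were lower at 8 weeks by 0.14 in CAC, with 68 of 77 below it, and by 0.08 in Con, with 67 of 77 below it (nuclear scale). Between these weeks the skeletal muscle marker sums had medians of 5745 at 8 and 13188 at 2 weeks in CAC, and 3090 at 8 and 1622 at 2 weeks in Con. Macrophage marker sums had medians of 508 at 8 and 276 at 2 weeks in CAC, and 187 at 8 and 123 at 2 weeks in Con. The part of these markers in the change with time was not tested.

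Whether the CAC minus Con difference changed between 2 and 8 weeks was tested directly. On the nuclear scale it was negative for 6 members and positive for 0, where 6.63% of all genes had a negative and 2.11% a positive change. The share of members, 6 of 77, was close to that of all genes, and after median-of-ratios rescaling 0 members were called. With the replicate number as a block 2 were called. The count of 6 was 19 without CAC library 3 of 8 weeks and 3 without CAC library 1 of 8 weeks or CAC library 5 of 2 weeks. Mrpl3, which reaches toward the catalytic centre of the large subunit, had the lowest value at -0.50 (SE 0.15, adjusted p = 0.0279). Its nuclear-scaled levels at 2 weeks were 35.8, 35.9, 29.5, 33.4 and 41.0 in CAC against 27.0, 28.4, 31.4, 30.3 and 30.5 in Con. At 8 weeks they were 20.7 at the lowest, 24.5 at the median and 27.1 at the highest in CAC, against 28.7, 30.1, 29.1, 27.1 and 30.0 in Con. The CAC libraries were thus mostly above Con at 2 weeks and at or below the lowest Con library at 8 weeks. Mrpl14 was next at -0.43 (SE 0.16) and was not called, and the highest were Mrps27 at 0.10 and Mrpl46 at 0.11, which were not called. By TPM the change was positive for 2 members, Mrpl27 and Mrpl32, and negative for 0, where 10.2% of all genes had a positive and 1.42% a negative change, and 0 to 3 members were called when single libraries were left out. A fit of only the groups compared gave 6 positive changes by TPM.

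Other genes of mitochondrial protein synthesis were lower with the members at 8 weeks. Against Con on the nuclear scale 16.9% of all genes were lower and 10.4% higher. Of 6 tested mitoribosomal proteins under other symbols 4 were lower and 0 higher against Con on the nuclear scale, with Ptcd3 lowest at -0.44 (SE 0.06) and Aurkaip1 at -0.19. Of 13 translation factors 11 were lower and 0 higher, led by Tsfm at -0.67 (SE 0.09), the nucleotide exchange factor of the elongation factor Tufm. The elongation factor Tufm itself was at -0.52 (SE 0.09). Of 17 mitochondrial aminoacyl-tRNA synthetases, which load tRNAs with amino acids, 10 were lower and 0 higher, with Cars2 lowest at -0.66 (SE 0.16). Of 23 genes of mitoribosome assembly and rRNA modification 13 were lower and 0 higher, with the rRNA methyltransferase Mrm1 lowest at -0.45 (SE 0.09).

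By TPM few of these were called, on a scale where 52.1% of all genes were higher and 1.97% lower. The counts there were 2 higher and 0 lower of 6 other mitoribosomal proteins, 1 higher and 1 lower of 13 translation factors, 4 higher and 0 lower of 17 synthetases and 6 higher and 0 lower of 23 assembly genes. Against NCAC on the nuclear scale 5 of 6, 11 of 13, 6 of 17 and 14 of 23 were lower and 0 were higher in these lists. Of all genes 14.0% were lower and 10.6% higher there.

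Mitochondrial transcription genes gave mostly lower calls, and the calls of the regulators went both ways. Of 21 genes of mitochondrial transcription and RNA processing 11 were lower and 1 higher against Con on the nuclear scale. Of all genes 16.9% were lower and 10.4% higher there. Tfam, which packages mitochondrial DNA and starts its transcription, was lowest at -0.51 (SE 0.07), and Hsd17b10, a subunit of the enzyme that trims the 5′ ends of mitochondrial tRNAs, was higher at 0.98 (SE 0.16). Of 11 regulators Esrrg at -0.63 (SE 0.16) and Esrra at -0.29 (SE 0.10) were lower, and Myc, a growth regulator, was higher at 1.85 (SE 0.34). Median values were -0.24 for the transcription genes and -0.05 for the regulators, against -0.05 for all genes.

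The nuclear genes of the respiratory chain and ATP synthase also gave mostly lower calls, and the cytosolic ribosome gave higher ones. On the nuclear scale 16.9% of all genes were lower and 10.4% higher against Con. Against NCAC 14.0% were lower and 10.6% higher. In TPM 52.1% were higher and 1.97% lower against Con. Of 83 respiratory chain genes 65 were lower and 0 higher against Con on the nuclear scale, with a median of -0.27 and Cox4i2 lowest at -0.56 (SE 0.13). Of 79 cytosolic ribosomal proteins 0 were lower and 12 higher, with a median of 0.15. The called cytosolic genes ran between Rpl19 at 0.18 and Rps12 at 1.27. On the TPM scale 21 of 83 respiratory chain genes and 76 of 79 cytosolic ribosomal proteins were higher and 0 lower, with medians of 0.13 and 0.54. Against NCAC on the nuclear scale 62 of 83 respiratory chain genes were lower and 0 higher, and the cytosolic genes gave 2 higher and 1 lower. The difference between the lists was not tested.

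**Figure D5:**
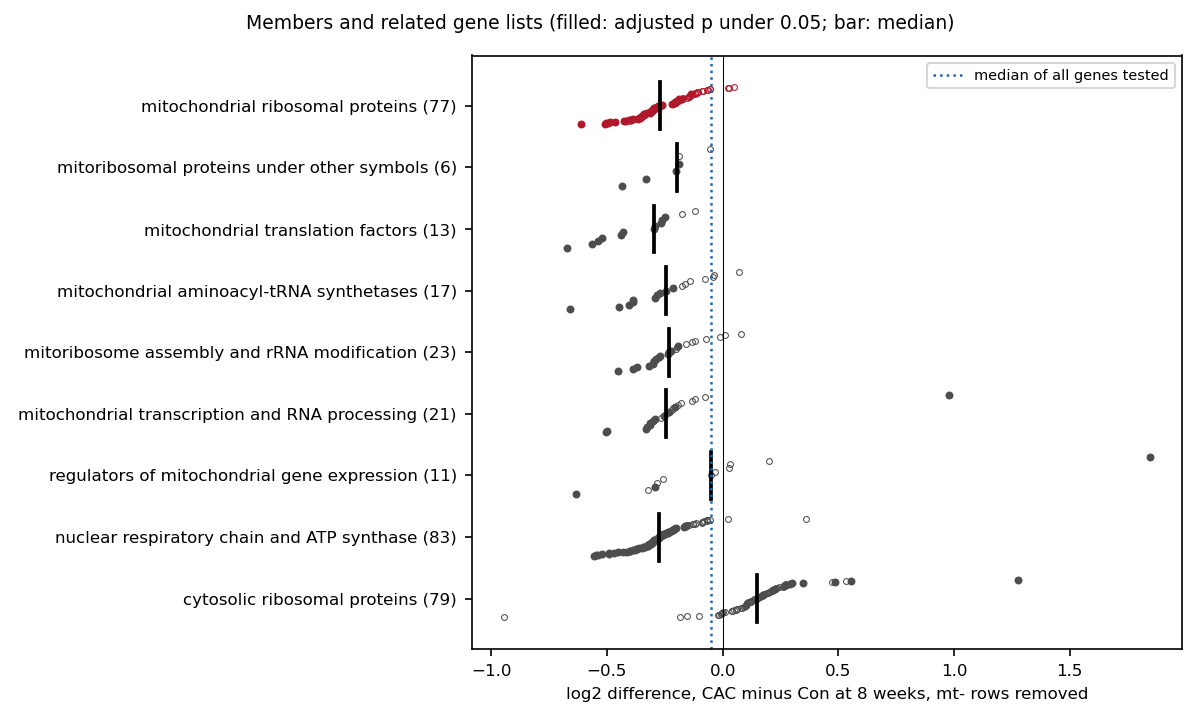
Log2 difference of CAC minus Con at 8 weeks on the nuclear scale for the 77 genes (red) and 8 related lists (grey), with the number of tested genes in parentheses. Each point is a gene, filled where the adjusted p is under 0.05, and bars mark list medians. The medians are -0.27 for the members, -0.27 for the respiratory chain and 0.15 for cytosolic ribosomal proteins.

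Markers of other cell types moved with the groups at 8 weeks, and their part in the differences above was not tested. Against Con on the nuclear scale 16.9% of all genes were lower and 10.4% higher. Of 7 macrophage markers 5 were higher and 0 lower in CAC against Con on the nuclear scale, led by Cd163 at 2.36 (SE 0.29). Their summed level ran from 293 to 619 in CAC, 129 to 224 in NCAC and 160 to 247 in Con, with no overlap between CAC and the other arms. Of 4 endothelial markers 1 was higher, and their summed level ran from 251 to 371 in CAC, 232 to 247 in NCAC and 224 to 284 in Con. Of 6 epithelial markers 4 were lower, with sums from 2.24 to 75.3 in CAC, 49.6 to 281 in NCAC and 41.4 to 284 in Con. Of 11 skeletal muscle markers 0 were called on either scale, and 0 reached an unadjusted p under 0.05 against Con. Their sums ran from 1426 to 7734 in CAC, 2624 to 20575 in NCAC and 2348 to 21314 in Con. Of 10 brown adipocyte markers 3 were lower, with Ucp1 at -1.23 (SE 0.23), and 1 was higher. Their sums ran from 42371 to 62858 in CAC, 47952 to 75303 in NCAC and 52152 to 58986 in Con. The 5 markers of melanoma or melanocytes summed to 4.14 to 8.72 in CAC, 5.53 to 20.5 in NCAC and 4.10 to 18.9 in Con, and 1 of them, the pigment enzyme Tyr, was at 0 in all 3 groups. Only Sox10 of that list passed the filter, and it was not called.

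Members varied together within groups. After group means were removed on the nuclear scale, the median Pearson correlation over the 62 libraries was 0.30 among the 2926 pairs of members. It was 0.35 between members and respiratory chain genes, -0.17 between members and cytosolic ribosomal proteins and -0.07 between members and all other tested genes. These are descriptions across pairs that share libraries and scaling. Mrpl12 had the highest mean correlation with the other members, at 0.45, and Mrps11 the lowest, at 0.00.

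Many members have an annotated start near that of a neighbour on the opposite strand. Whether such neighbours share a promoter was not tested. In the GENCODE annotation of mm10, 33 of 77 members (42.9%) had the start of a protein-coding gene on the opposite strand within 1000 bases, against 16.0% of the tested protein-coding genes. Of the 20 such members that were lower in CAC than in Con at 8 weeks on the nuclear scale, 15 had a tested partner. Among these partners 3 were lower, 1 was higher and 11 were not called, where 16.9% of all genes were lower and 10.4% higher. The share of partners called lower, 3 of 15, was thus close to that of all genes. The median of the partners was -0.01, and Wdfy1, opposite Mrpl44, was at 0.02. Mrps12 lies opposite Sars2, the mitochondrial seryl-tRNA synthetase, and they differed by -0.35 and -0.40. Mrpl36 lies opposite Ndufs6, a subunit of respiratory complex I, and both differed by -0.35. Mrpl47 and Ndufb5, another complex I subunit, differed by -0.35 and -0.37. Mrpl36 overlaps Ndufs6 and Mrpl47 overlaps Ndufb5 on opposite strands, as Mrpl44 does Wdfy1. The pair Mrpl49 and Fau, which encodes a cytosolic ribosomal protein, diverged, with -0.31 for Mrpl49 and 0.35 for Fau, both called. Of the members 23 overlap a protein-coding gene on the opposite strand and 4 one on the same strand, 26 in all. Overlaps with other kinds of genes were not searched. The library kit keeps strand information, but whether the quantification used it is not given in the sources used here, so the values of overlapping genes are uncertain. The members lie on 17 chromosomes, with 10 of them on chromosome 11.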

How the data were processed

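RNA of mouse brown adipose tissue from 62 samples in 12 groups was extracted with Trizol and sequenced from TruSeq stranded mRNA libraries on a NovaSeq instrument, per the labels' protocols. The extraction text also mentions another tumour model. The authors deposited 1 table of TPM for 47643 symbols on mm10, per the submitters' processing notes. Aligner, annotation and quantifier are not given in the sources used here. Each column summed to 1000000. Columns were assigned to samples by title.

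Values were analysed as log2(TPM + 1), which understates changes of low genes, in limma 3.58.1 (R 4.3.3, trended empirical Bayes) with all 62 libraries and 12 group means in 1 fit. Genes needed 1 TPM in 5 libraries, which left 12581, or 12568 once mt- rows were removed and the rest rescaled. In all 15 contrasts were tested, and calls needed an adjusted p under 0.05 by the method of Benjamini and Hochberg over all genes of the contrast. Shares of all genes called are given for this fit on the TPM and nuclear scales. They are not given for counts at an unadjusted p, after median-of-ratios rescaling, from other fits or with libraries left out. The script was tested on simulated data.

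The members, gene lists and tests were chosen with earlier results of these data known. Named members are the 6 highest and 6 lowest of CAC against Con at 8 weeks on the nuclear scale, the 2 highest and 2 lowest of the other CAC comparisons with Con, of CAC against NCAC at 8 weeks and of the change between 2 and 8 weeks, the 3 with the highest and lowest mean TPM, and Mrpl12, Mrps36, Mrps12, Mrps30 and Mrps18a, 28 in all. From each other list the called genes with the extreme differences were named. Tufm, Sars2, Ndufs6, Ndufb5, Fau, Wdfy1 and the members named in counts of 5 or fewer or beside promoters were chosen after their values were seen. Alternatives were median-of-ratios rescaling, a pseudocount of 0.1, no filter (23425 genes), only the groups compared, the replicate number as a block, leaving out each library and leaving out Con libraries 3 and 4 of 4 weeks. On the nuclear scale the last 4 were added after the data were seen. Positions come from GENCODE M21 and promoters from RefSeq. Plots were made in matplotlib 3.10.9 under Python 3.11.15.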

Additional observations from a re-analysis of the deposited data

Results flagged for a closer look

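Single libraries stood apart from the rest of their group in 8 of 48 combinations of group and measure, where chance marks about 1 in 20 groups. The measures are not independent, since the summed levels include the single members. Some members were also named for extreme values at 8 weeks. The count of 8 therefore cannot be compared with the rate set by chance. In CAC at 8 weeks library 3 was the highest for the summed level on the nuclear scale (8349), for Mrpl34 (277.3) and for Mrpl12 (337.0), and library 5 was the highest for Mrps2 (125.8). In NCAC library 3 of 8 weeks was the lowest for Mrps36 (260.1) and the highest for the summed TPM (3756), and library 4 of 6 weeks was the highest for the summed TPM (5152). In Con at 8 weeks library 4 was the lowest for Mrpl34 (230.9).

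The test of a change of the CAC minus Con difference between 2 and 8 weeks called 2 members in TPM, where 10.2% of all genes had a positive and 1.42% a negative change. They were Mrpl27 at 0.3851 and Mrpl32 at 0.3223 on the log2 scale. On the nuclear scale it called 6 members, all negative, where 6.63% of all genes had a negative and 2.11% a positive change. These were Mrpl3 at -0.4988, Mrpl44 at -0.4074, Mrpl33 at -0.3371, Mrpl43 at -0.3304, Mrpl42 at -0.3113 and Mrpl35 at -0.2481. Median-of-ratios rescaling called 0 members in this test.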

How the results depend on the processing

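Of 1812 alternative values 1544 kept their direction, their side of the threshold and, for counts, stayed within 1.5 times. Where a cause is not plain from the alternative itself, the cause was not tested. On the TPM scale the members called were 0, 26, 9 and 23 for CAC against Con at 2, 4, 6 and 8 weeks, 0, 0, 1 and 3 for CAC against NCAC, 4 for CAC at 8 against 2 weeks and 2 for the change between 2 and 8 weeks. With mt- rows removed they were 1, 19, 13 and 52 against Con, 0, 1, 13 and 56 against NCAC, 42 within CAC and 6 for the change. With median-of-ratios rescaling they were 1, 21, 3 and 37 against Con, 1 at 4, 2 at 6 and 48 at 8 weeks against NCAC, 25 within CAC and 0 for the change. In that rescaling the calls turned from higher to mostly lower against Con at 6 and 8 weeks. Without a filter 1 member was called against NCAC at 8 weeks and 1 for the change.

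With only the groups compared in the fit, the TPM counts were 2 and 0 against Con at 2 and 4 weeks, 0 and 0 against NCAC at 6 and 8 weeks, 28 for Con at 8 against 2 weeks, 1 within CAC and 6 for the change. The nuclear-scale counts were then 2, 0 and 32 against Con at 2, 4 and 8 weeks, 0, 6 and 29 against NCAC at 4, 6 and 8 weeks and 20 within CAC. Without Con libraries 3 and 4 of 4 weeks 0 members were called against Con at that week on either scale. Replicate numbers were not taken to pair the libraries, since no comparison had all 5 correlations of deviations above 0.1 (lowest -0.389, highest 0.484). That rule cannot exclude a pairing of some of the libraries. With the replicate number as a block, which leaves CAC libraries 6 and 7 of 8 weeks without a partner, the TPM counts were 0 against NCAC at 8 weeks, 1 within CAC and 0 for the change, and the nuclear-scale count for the change was 2. The block turned the TPM difference of Mrpl42 against Con at 8 weeks to 0.015, and on the nuclear scale turned Mrpl46 to -0.0021 and Mrps11 to -0.0060 against Con and Mrps10 to 0.0038 against NCAC.

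Leaving out single libraries gave TPM counts of 0 to 46, 3 to 9 and 14 to 27 against Con at 4, 6 and 8 weeks, 1 to 3 and 0 to 5 against NCAC at 6 and 8 weeks, 0 to 13 for NCAC against Con at 4 weeks, 0 to 4 for Con at 8 against 2 weeks, 1 to 8 within CAC and 0 to 3 for the change. Nuclear-scale counts were 0 to 3, 7 to 24, 9 to 15 and 44 to 54 against Con at 2, 4, 6 and 8 weeks, 0 to 5, 6 to 13 and 52 to 58 against NCAC at 4, 6 and 8 weeks, 35 to 47 within CAC and 3 to 19 for the change.

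Single members whose TPM difference against Con at 8 weeks was positive were negative with median-of-ratios rescaling and with mt- rows removed. These were Mrpl12 (-0.27 and -0.32), Mrpl19 (-0.28 and -0.34), Mrpl23 (-0.019 and -0.061), Mrpl33 (-0.10 and -0.15), Mrps10 (-0.088 and -0.14), Mrps12 (-0.30 and -0.35), Mrps16 (-0.24 and -0.28), Mrps17 (-0.012 and -0.054), Mrps18a (-0.048 and -0.091), Mrps30 (-0.25 and -0.30) and Mrps34 (-0.012 and -0.054). Against NCAC at 8 weeks Mrps18a (-0.016 and -0.038) did the same, and Mrps10 was at -0.015 with mt- rows removed. Against Con at 4 weeks Mrps17 (0.071 and 0.13) and Mrps18c (0.030 and 0.083) turned positive, as they did without Con libraries 3 and 4 (0.14 and 0.10).

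Leaving out a library turned the TPM sign of Mrpl19 (-0.061 to 0.077), Mrpl42 (-0.035 to 0.041), Mrps12 (-0.014 to 0.10) and Mrps2 (-0.17 to 0.022) against Con at 8 weeks and of Mrps17 (-0.12 to 0.055) and Mrps18c (-0.11 to 0.020) at 4 weeks. On the nuclear scale at 8 weeks it turned Mrpl46 (-0.036 to 0.059), Mrps11 (-0.028 to 0.090) and Mrps17 (-0.10 to 0.023) against Con, and Mrps10 (-0.069 to 0.061) and Mrps18a (-0.10 to 0.045) against NCAC. Depth is unknown, so its limits could not be set.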
